A study of Canis lupus familiaris with 28 samples.

Results

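The genes described here are 10 genes of CD8+ T cells and other cytotoxic lymphocytes: CD8A, CD8B, GZMA, GZMB, GZMK, PRF1, EOMES, TBX21, KLRD1 and IFNG. They were chosen by name, and every probe whose gene name on the array equals one of them was taken. A probe of that name was found for 9 of the 10 genes, and none for GZMB, which is not described further. The 9 genes had 11 of the 43603 probes that are not controls, with 2 probes each for CD8A and KLRD1 and 1 for every other gene. All 11 probes were among the 30202 that passed the filter on signal, which asks for a median processed signal above 100 in at least 1 channel of 1 group.

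RNA from blood was taken from 20 dogs with atopic dermatitis (AD dogs) and from 8 healthy dogs, and each sample was read on its own two-color Agilent canine array. AD dogs were client-owned patients of various breeds that were bled while their skin signs were visible and after a period without anti-inflammatory drugs. Healthy dogs were blood donors, also of various breeds. The dog was labelled with Cy5, and Cy3 marked a common reference, a pool of RNA from 13 other healthy dogs. The labels give no age, sex or breed for a single dog. The labels name whole blood as the source, while the series title speaks of nuclear cells. Of the marker genes that passed the filter, those of neutrophils (6 of 6), red cells (7 of 7) and T cells (9 of 9) were well above background on all 28 arrays. A further neutrophil gene on the array, MPO, did not pass the filter. The study also counted CD8+ T cells by flow cytometry. Those counts were not analysed here.

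CD8 is a co-receptor built from an alpha chain and a beta chain that helps the T cell receptor of cytotoxic T cells recognise peptides on MHC class I. Cytotoxic T cells and natural killer cells kill target cells with perforin, which opens the membrane, and with granzymes, the proteases that follow. The T-box factors EOMES and TBX21 direct this program, the lectin-like receptor KLRD1 tunes it, and IFNG is the cytokine these cells release.

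Each gene was read by probes of 60 bases, and sequences of probes for 6 of the genes that the results turn on are given below as the array files hold them, 5′ to 3′. For CD8A the less bright of the pair is shown, whereas the CD8A values below rest on the brighter probe unless the other is named. Capitals mark the 14 bases it shares with the start of the brighter probe, which runs on downstream. The other probes carry no capitals.
CD8A: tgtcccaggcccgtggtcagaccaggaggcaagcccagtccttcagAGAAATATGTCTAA
CD8B: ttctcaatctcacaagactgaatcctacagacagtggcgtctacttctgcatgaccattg
GZMA: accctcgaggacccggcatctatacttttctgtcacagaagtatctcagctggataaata
GZMK: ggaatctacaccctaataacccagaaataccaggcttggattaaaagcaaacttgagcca
EOMES: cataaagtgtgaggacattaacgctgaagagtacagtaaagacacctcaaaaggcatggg
KLRD1: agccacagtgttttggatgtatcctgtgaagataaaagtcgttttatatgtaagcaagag

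Positions are those of the canFam3 build printed in the array files, which give no exons or introns. The CD8A probe shown lies on the plus strand of chromosome 17 between 38398181 and 38400360, so that its 60 bases are spread over 2180 positions. The brighter CD8A probe lies at 38400347 to 38400406, and the CD8B probe at 38346262 to 38346321 of the same chromosome and strand, 51.9 kb from the first. The GZMA probe is on chromosome 2 (42498382 to 42498441, plus strand) and the GZMK probe on chromosome 4 (60559476 to 60559535, minus strand). The probes of these 2 granzymes share no run longer than 5 bases. The EOMES probe is on chromosome 23 (16511187 to 16511246, plus strand), and the KLRD1 probe shown, the brighter of 2, on chromosome 27 (35701212 to 35701271, minus strand). PRF1 is read on chromosome 4, TBX21 on chromosome 9 and IFNG on chromosome 10.

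There were 8 slides and 5 scan days, and no slide or scan day held dogs of both groups. Healthy dogs 1 to 4 were on slide 2 and dogs 5 to 8 on slide 3, both scanned on day 2. Slide, scan day and disease therefore cannot be told apart, and no value within a slide or day compares the groups. Of the Cy5 signals, the share well above background was 84.3% to 90.3% on healthy arrays and 51.7% to 87.4% on AD arrays. The 6 AD arrays of scan day 5 (dogs 15 to 20) had 51.7% to 63.2%. As a control, the common reference channel, which held the same RNA on every array, was compared between AD and healthy arrays, and limma called 11807 of 30202 probes (39.1%) at an adjusted p of at most 0.085. Of the 9 genes, CD8B, GZMK and TBX21 were called in that channel, where their values on AD minus healthy arrays were 0.35, 0.12 and -0.22 (log2).

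The 11 probes gave 308 values, 1 for each array, of which 300 were well above background, 0 were saturated and 0 were missing. The 8 values that were not came from AD dogs, at EOMES (well above background in 18 of 20 AD dogs) and IFNG (14 of 20). Values below are log2 ratios of dog to common reference, centered on the median of each array. A fold change is the mean of AD dogs minus the mean of healthy dogs, and each gene is represented by its brightest probe. A higher or lower ratio in blood RNA does not tell more or fewer cells of a type from more or less RNA in each cell.

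Between AD and healthy dogs, limma called 0 of the 9 genes at an adjusted p of at most 0.085, the threshold used here, and 0.0% of all probes. At an unadjusted p under 0.05 there were 2 genes, GZMK and EOMES, both lower in AD dogs. Of all probes 6.12% had such a p, and 4.46% were lower in AD dogs with such a p. The fold change was below 0 for 6 of the 9 genes, against 52.1% of all probes, and the median over the 9 genes was -0.02, against -0.01 over all probes. Of these 6, CD8A, GZMA, PRF1 and KLRD1 were above 0 without slide 3, and CD8A and PRF1 also with the dog's channel alone or with normexp and loess. The groups overlapped for each of the 9 genes, as they did at every probe tested (0.0% without overlap).

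**Figure D1:**
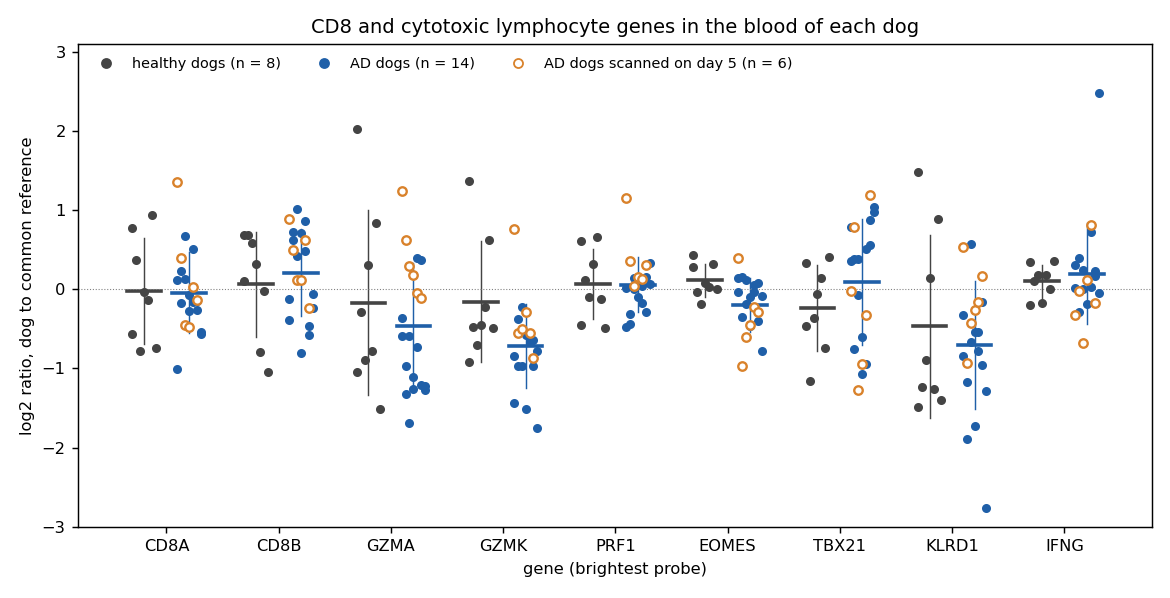
Log2 ratio of dog to common reference (vertical axis) of the brightest probe of each gene (horizontal axis). Points are single dogs, thick lines means and thin lines 1 SD. The 8 healthy dogs and the AD dogs overlap for every gene, and the 6 AD dogs of scan day 5 (open points) reach 1.25 for GZMA.

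CD8A, the alpha chain, differed between the groups by less than the SD within either. Its log2 ratio ran from -0.78 to 0.94 in healthy dogs, with a median of -0.09, and from -1.01 to 1.35 in AD dogs, with a median of -0.14. Of the 20 AD dogs, 18 lay inside the range of healthy dogs. The fold change was -0.02 (standard error 0.224, 95% interval -0.48 to 0.44, unadjusted p = 0.925 and adjusted p = 0.990 from limma). The other CD8A probe gave -0.09 (standard error 0.200). The values of both probes had an r of 0.965 over AD dogs and 0.955 over healthy dogs, and differed by at most 0.47 in any dog.
CD8B, the beta chain, had log2 ratios from -1.04 to 0.69 in healthy dogs (median 0.21) and from -0.80 to 1.01 in AD dogs (median 0.27). The 5 highest AD dogs lay above all healthy dogs, and none lay below them. The fold change of 0.15 (standard error 0.231, 95% interval -0.33 to 0.62, unadjusted p = 0.533 from limma) was less than the SD within either group. The reference channel differed by more, at 0.35 (standard error 0.0789, adjusted p = 0.00234 from limma), and its part in the CD8B value was not tested. The CD8B fold change was 0.49 with the dog's channel alone, 0.50 without slide 2 and -0.21 without slide 3.

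The study's flow cytometry gave CD8+ cells as a share of CD3+ cells and a ratio of CD4+ to CD8+ cells. It was done on mononuclear cells separated from blood, and the study reported a higher share and a lower ratio in AD dogs. The CD8 genes were therefore also set against CD3E and CD4 in each dog. Transcripts and cell counts are unlike measures, and a relation between them was not tested. CD3E encodes a chain of the CD3 complex that carries the T cell receptor signal, and CD4 is the co-receptor of helper T cells. The log2 ratio of CD8A minus that of CD3E averaged -0.39 ± 0.51 (SD, n = 20) among AD dogs, against -0.09 ± 0.57 (SD, n = 8) among healthy dogs. It ran from -1.30 to 0.57 in AD dogs (median -0.36) and from -0.99 to 0.91 in healthy dogs (median -0.10), with 5 of 20 AD dogs above the healthy mean. The difference of -0.30 (standard error 0.233, 95% interval -0.85 to 0.25) did not pass an exact permutation test over 3108105 assignments of dogs (two-sided, p = 0.189, adjusted over 3 measures 0.323). For CD8B minus CD3E the difference was -0.13 (95% interval -0.55 to 0.29, exact permutation p = 0.492). For CD8A minus CD4 it was -0.42 (95% interval -1.20 to 0.36, exact permutation p = 0.215, adjusted 0.323). All 3 differences were below 0, the other way from the study's counts of CD8+ cells, and their intervals reach on both sides of 0. In the other terms of these measures, CD3E had a fold change of 0.28 and CD4 one of 0.40, with unadjusted p-values of 0.127 and 0.0968 from limma. The CD3 chains CD3D and CD3G had fold changes of -0.05 and -0.08, unlike CD3E. The CD8 genes were not set against them, so the differences to CD3E hold for that chain only. With the dog's channel alone, CD8A minus CD3E was -0.66 and passed (exact permutation p = 0.0130, adjusted 0.0389). In that setting limma called 1251 of 30202 probes and gave 5879 an unadjusted p under 0.05, against 0 and 1847 with the ratio to the reference. The slides of healthy dogs moved all 3 measures: without slide 3 CD8A minus CD3E was 0.05 and CD8A minus CD4 -0.02, and without slide 2 they were -0.64 and -0.82, while CD8B minus CD3E was -0.37 and 0.11.

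**Figure D2:**
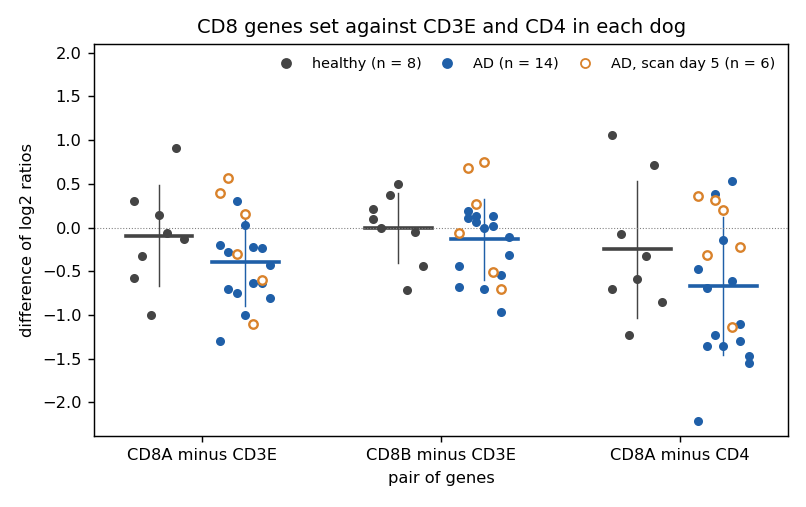
Difference of log2 ratios (vertical axis) for CD8A minus CD3E, CD8B minus CD3E and CD8A minus CD4, with a point for each dog, the mean (thick line) and 1 SD (thin line). AD dogs lie on average 0.30, 0.13 and 0.42 below healthy dogs, and the groups overlap in all 3.

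GZMK, a granzyme of memory-type CD8+ T cells, had the lowest unadjusted p of the granule genes. Healthy dogs had log2 ratios from -0.92 to 1.37 (median -0.46) and AD dogs from -1.75 to 0.76 (median -0.65). Of the AD dogs, 6 lay below all healthy dogs and 19 of 20 below the healthy mean, and 2 healthy dogs stood above the rest of their group. Healthy dog 8 was at 1.37 and dog 6 at 0.63, while every other healthy dog was at -0.22 or lower. The fold change was -0.56 (standard error 0.239, 95% interval -1.05 to -0.07, unadjusted p = 0.0265 and adjusted p = 0.684 from limma). Both high dogs were on slide 3, whose median was 0.20, against -0.59 on slide 2. Without slide 3 the fold change was -0.08 (unadjusted p = 0.765 from limma), and without slide 2 it was -1.04. The reference channel gave 0.12 (adjusted p = 0.0627 from limma) for this probe.
GZMA, a granzyme of T cells and natural killer cells, varied more between dogs than most genes. Healthy dogs ran from -1.51 to 2.02 (median -0.54), an 11.6-fold range, and AD dogs from -1.69 to 1.25 (median -0.59). Healthy dog 8 was again the highest, and 19 of 20 AD dogs lay inside the healthy range. The SD over AD dogs, 0.80, was larger than that of 93.1% of all probes, while in the reference channel the SD of this probe was larger than that of 32.0%. The fold change of -0.30 had a standard error of 0.357 (95% interval -1.02 to 0.43, unadjusted p = 0.414 from limma). AD dogs of scan day 5 had values from -0.11 to 1.25 (median 0.24), and the 14 other AD dogs from -1.69 to 0.39 (median -1.04). The part of the scan day or the lower detection in this was not tested. Without scan day 5 the fold change was -0.65 (unadjusted p = 0.0684 from limma), with array weights -0.72 (unadjusted p = 0.0404 from limma), and without slide 3 it was 0.02. Array weights gave 6052 of 30202 probes an unadjusted p under 0.05.
PRF1, which encodes perforin, had a fold change of -0.01 (standard error 0.157, 95% interval -0.33 to 0.31, unadjusted p = 0.963 from limma). Its log2 ratios ran from -0.49 to 0.66 in healthy dogs (median 0.01) and from -0.48 to 1.16 in AD dogs (median 0.05). Only AD dog 15 lay above the healthy dogs and no AD dog below them.

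EOMES, a T-box factor of memory and effector CD8+ T cells and of natural killer cells, had the other unadjusted p under 0.05. Healthy dogs had log2 ratios from -0.18 to 0.43 (median 0.05) and AD dogs from -0.97 to 0.39 (median -0.14). Of the 20 AD dogs, 10 lay below every healthy dog and none above them. The fold change was -0.32 (standard error 0.135, 95% interval -0.59 to -0.04, unadjusted p = 0.0258 and adjusted p = 0.677 from limma). The lowest values were those of AD dog 16 (-0.97), AD dog 14 (-0.78) and AD dog 17 (-0.61), each on an array where 63.2% or fewer of the probes exceeded background. The highest AD value, 0.39 in AD dog 15, was on such an array too (58.3%). The median was -0.37 on scan day 5 and -0.06 in the other AD dogs, and without that day the fold change was -0.25 (unadjusted p = 0.0467 from limma). It was -0.36 without slide 2 and -0.27 without slide 3 (unadjusted p = 0.0602 and 0.157 from limma). The probe was dim, with a median processed signal of 156 among AD dogs against 209 among healthy dogs. When normexp and loess replaced the scanner's processing, the fold change was -0.09 (unadjusted p = 0.0315 from limma).
TBX21, also known as T-bet, ran the other way. AD dogs had a mean log2 ratio of 0.09 ± 0.79 (SD, n = 20) and healthy dogs one of -0.24 ± 0.55 (SD, n = 8), with ranges of -1.27 to 1.19 and -1.15 to 0.41. The medians were 0.37 and -0.21, and 8 of 20 AD dogs lay above every healthy dog. The fold change of 0.33 did not pass (standard error 0.288, 95% interval -0.26 to 0.92, unadjusted p = 0.260 and adjusted p = 0.872 from limma). It was 0.14 with the dog's channel alone and 0.53 with array weights (unadjusted p = 0.0221 from limma). With array weights, 6052 of 30202 probes had an unadjusted p under 0.05. Its SD over AD dogs was larger than that of 92.6% of probes. The values of EOMES and TBX21 had an r of 0.0892 over AD dogs.

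KLRD1, or CD94, a receptor chain of natural killer cells and some T cells, had log2 ratios from -1.49 to 1.49 in healthy dogs (median -1.06) and from -2.76 to 0.58 in AD dogs (median -0.61). AD dogs thus had the higher median and the lower mean, -0.71 ± 0.81 (SD, n = 20) against -0.47 ± 1.16 (SD, n = 8). The fold change was -0.24 (standard error 0.357, 95% interval -0.97 to 0.49, unadjusted p = 0.509 from limma) for the brightest probe and -0.23 for the other. For the brightest probe it was 0.16 without slide 3, -0.64 without slide 2, -0.46 without scan day 5, -0.58 with array weights and -0.03 with normexp and loess. The lowest AD dog by the brightest probe, dog 7 at -2.76, was at -1.67 by the other probe, the largest gap between them in any dog (1.09). Over AD dogs the probes had an r of 0.833, and over healthy dogs 0.963.
IFNG, the cytokine interferon gamma, had log2 ratios from -0.20 to 0.36 in healthy dogs (median 0.14) and from -0.68 to 2.48 in AD dogs (median 0.07). AD dog 14 was at 2.48 and the next AD dog, dog 19, at 0.81. The processed signal of AD dog 14 itself, 69.1, was below the AD median of 104, while the reference signal on its array was 12.3, against an AD median of 92.3. On the array of AD dog 19 both signals were under 10 (9.92 and 5.71). The fold change was 0.10 (standard error 0.222, 95% interval -0.36 to 0.55, unadjusted p = 0.670 from limma), and -0.03 without slide 6, which held AD dog 14. The AD median was close to the filter limit of 100, and the 6 AD dogs of scan day 5 had signals of at most 12.7. In the reference channel, too, this probe varied over AD arrays more than 93.6% of probes.

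**Figure D3:**
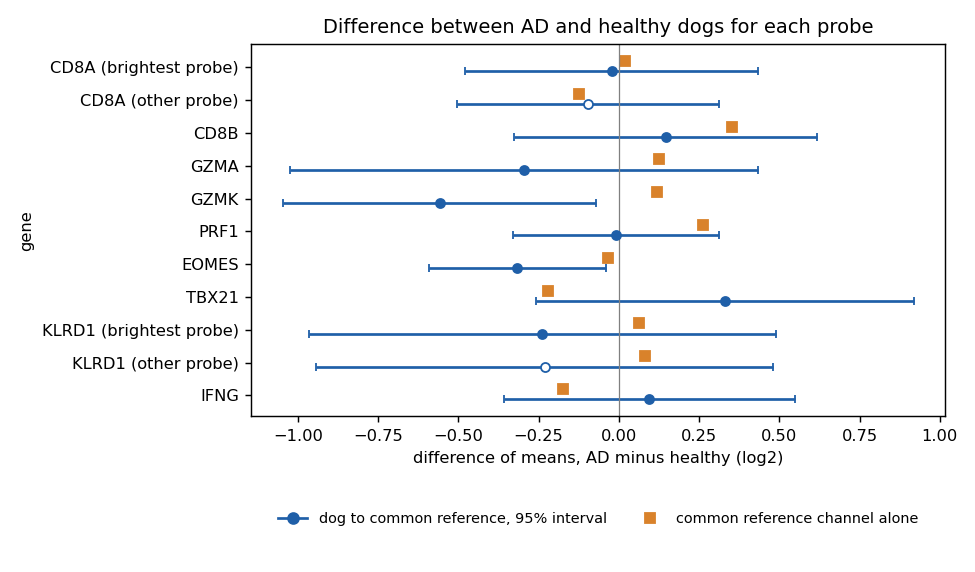
Difference of means, AD minus healthy, on the log2 scale (horizontal axis) for each of the 11 probes (vertical axis). Blue circles with 95% intervals are the ratio of dog to common reference, filled for the brightest probe of a gene, and orange squares are the reference channel alone. Only the intervals of GZMK (-1.05 to -0.07) and EOMES (-0.59 to -0.04) lie on 1 side of 0, and the reference channel reaches 0.35 at CD8B.

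Single dogs stood at the end of the range for several genes at once. AD dog 15 had the highest value of the AD dogs for 5 of the 9 genes (CD8A, GZMA, GZMK, PRF1 and EOMES), and a mean over the 9 genes of 0.67. Its array had 58.3% of probes well above background. Healthy dog 8 had the highest value of the healthy dogs for 4 genes (CD8B, GZMA, GZMK and KLRD1) and the lowest for IFNG, with a mean of 0.73. Its array had 86.3% of probes well above background. AD dog 4 had the lowest mean of all dogs, -0.63.

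Pearson's r was computed for the 36 pairs of genes in AD dogs and in healthy dogs, a family of 72 correlations. The median r was 0.112 in AD dogs (range -0.345 to 0.629) and 0.296 in healthy dogs (range -0.898 to 0.950). The p-values came from 100000 permutations in AD dogs and from exact permutation for the healthy group, two-sided, with Benjamini-Hochberg adjustment over the family. At an adjusted p under 0.05 there was 1 pair in AD dogs and 2 in healthy dogs.
In AD dogs this pair was GZMA and PRF1, whose products act together in the cytotoxic granule. Its r was 0.629 (permutation p = 0.00199, adjusted p = 0.0478) and its rho 0.558 (permutation p = 0.0115, adjusted p = 0.104). Leaving out the 2 AD dogs most distant from the GZMA median gave an r of 0.352, so the relation rests in part on them. After subtraction of slide means r was 0.290 (adjusted p = 0.397), and over the 14 AD dogs of the other scan days 0.188, so it did not hold within slides or without scan day 5.
In healthy dogs the pairs were GZMA with KLRD1 and GZMA with IFNG. GZMA and KLRD1 had an r of 0.950 (exact permutation p = 0.000868, adjusted p = 0.0478) and a rho of 0.905 (exact permutation p = 0.00456, adjusted p = 0.104). Without the 2 farthest dogs r was 0.806, and with slide means removed 0.949. In healthy dogs 0 pairs of genes passed without healthy dog 5, and 1 with normexp and loess. Without scan day 5, which held AD dogs only, 0 passed as well, although no healthy value changed, since the adjustment covers both groups. In AD dogs GZMA and KLRD1 had an r of 0.583 (permutation p = 0.00631, adjusted p = 0.0523), 0.560 with slide means removed and 0.471 without scan day 5. GZMA and IFNG ran in opposite directions in healthy dogs, with an r of -0.898 (exact permutation p = 0.00159, adjusted p = 0.0478) and a rho of -0.976 (exact permutation p = 0.000397, adjusted p = 0.0286). Without the 2 farthest dogs r was -0.965, and with slide means removed -0.920. In AD dogs r was -0.325 (permutation p = 0.160). IFNG spanned only a 1.47-fold range in healthy dogs, against 11.6-fold for GZMA, at a median processed signal of 128. Whether r differed between the groups was not tested for any pair.

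**Figure D4:**
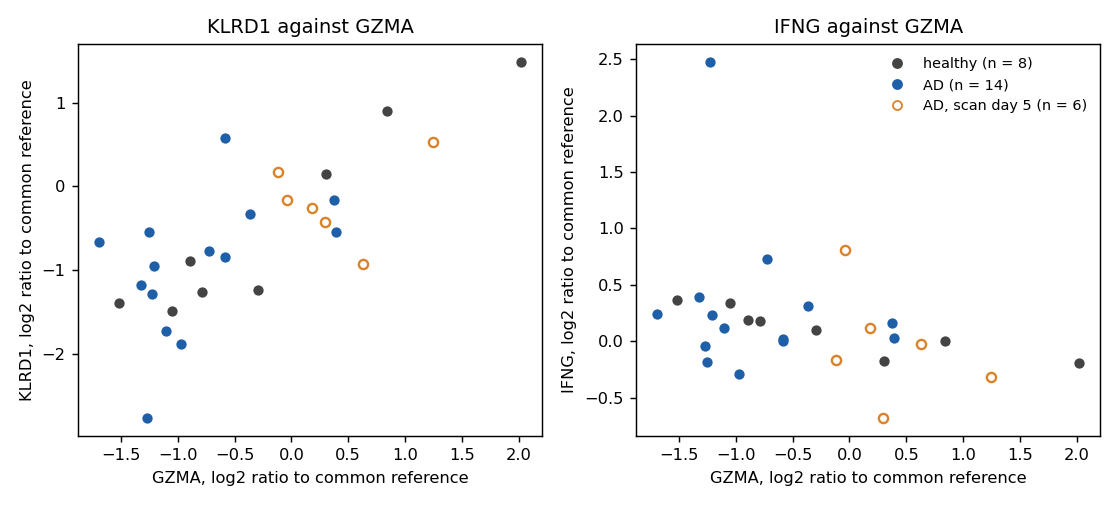
Log2 ratio of KLRD1 (left) and of IFNG (right) against that of GZMA, with a point for each dog. KLRD1 rises with GZMA in the 8 healthy dogs (r = 0.950) and in AD dogs (r = 0.583). IFNG falls with GZMA in healthy dogs (r = -0.898), over a 1.47-fold range of IFNG. AD dog 14 lies apart at an IFNG ratio of 2.48, with a dog signal of 69.1 over a reference signal of 12.3.

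The pairs fell into a pattern that was seen in the values and was not tested. The 15 pairs among CD8A, CD8B, GZMA, GZMK, PRF1 and KLRD1 all had an r above 0, from 0.110 to 0.629 in AD dogs (median 0.507) and from 0.203 to 0.950 in healthy dogs (median 0.541). Without scan day 5 this did not hold in AD dogs, where 4 of the 15 pairs (CD8B with GZMA and PRF1, GZMK with GZMA and PRF1) were below 0 and the median was 0.208. The 14 pairs of TBX21 or IFNG with any of the other genes had an r below 0 in 11 cases in AD dogs and in 13 in healthy dogs, while TBX21 and IFNG had an r of 0.410 (AD) and 0.490 (healthy) with each other. With slide means removed, 7 of these 14 pairs were below 0 in AD dogs and 13 in healthy dogs. The TBX21 and IFNG part of the pattern thus did not hold within slides in AD dogs. The 15 pairs named first all kept an r above 0 after the same removal, in both groups, with medians of 0.462 (AD) and 0.825 (healthy). They leaned on few dogs, as seen when the 2 dogs farthest from the median of the gene listed first were left out. In AD dogs r as measured then fell for all but CD8B with GZMA and with PRF1, down to -0.04 for CD8A and PRF1. In healthy dogs it fell for all but the pairs with PRF1, down to -0.02 for CD8B and KLRD1. In AD dogs CD8A and CD8B had an r of 0.547 (permutation p = 0.0108, adjusted p = 0.0595), and CD8B and GZMK one of 0.613 (permutation p = 0.00310, adjusted p = 0.0523). With slide means removed, CD8A and PRF1 (0.689), CD8B and GZMK (0.654) and CD8A and EOMES (0.599) passed in AD dogs, with permutation p-values adjusted to 0.0113, 0.0196 and 0.0438. These permutations moved dogs across slides and did not allow for the slide means taken out, so these p-values can be too small. The CD8A and PRF1 relation rests on few dogs, since r as measured was 0.587 and fell to -0.04 without the 2 dogs farthest from the CD8A median.

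**Figure D5:**
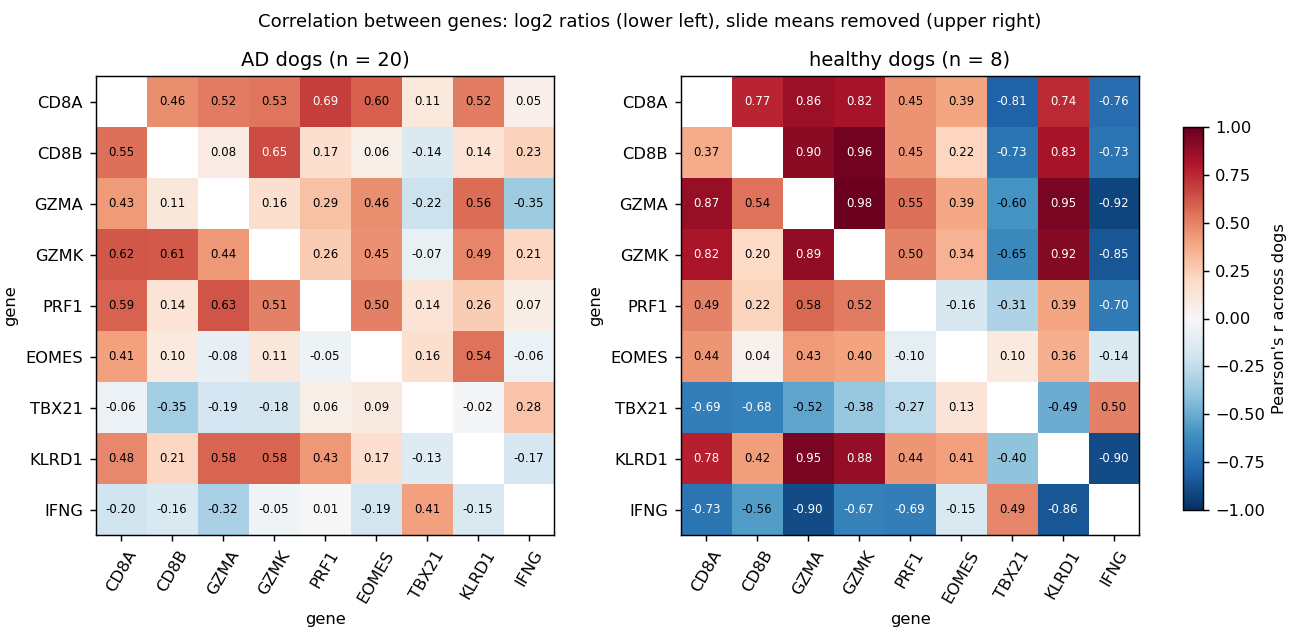
Pearson's r between the log2 ratios of each pair of genes over 20 AD dogs (left) and 8 healthy dogs (right). In each panel the lower left gives r as measured and the upper right r with the mean of each slide removed. In the lower left of both panels, pairs of TBX21 or IFNG with other genes are mostly blue (r below 0) and pairs among the CD8, granzyme, PRF1 and KLRD1 genes red (r above 0).

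For each gene, the other named genes with the highest r over the 20 AD dogs were found among 10729, with the mean of each slide removed. For CD8A they were ARL15 (0.767), MAPK8 (0.759) and CCL5 (0.755), and over the 8 healthy dogs their r was 0.149, -0.169 and 0.697. For CD8B they were VPS13B (0.845), LRFN3 (0.824) and PRMT2 (0.805), with 0.548, 0.159 and 0.0157 over healthy dogs. For GZMA they were RASGRP2 (0.750), LRRK2 (0.738) and SH2D1A (0.714), with 0.0274, -0.0299 and 0.889 over healthy dogs. For KLRD1, SH2D1A (0.789), IL12RB2 (0.789) and CD96 (0.777) led, and their r over healthy dogs was 0.880, 0.897 and 0.951. SH2D1A was thus among the closest for both genes. For GZMK they were RAB33B (0.781), GPHN (0.692) and BBS9 (0.675), and for PRF1 MRC1 (0.800), GDAP1L1 (0.797) and TSC22D2 (0.796). Over healthy dogs these 6 genes had an r of -0.399 (BBS9) to 0.339 (RAB33B) with theirs. EOMES was closest to EFCAB9 (0.895), EVPL (0.890) and EFCAB1 (0.880), and over healthy dogs these had an r of -0.136, 0.637 and 0.605. TBX21 was closest to NTM (0.921), PDCD1 (0.919), which encodes the inhibitory receptor PD-1, and MRGPRG (0.919), with 0.795, 0.806 and 0.556 over healthy dogs. For IFNG they were YES1 (0.840), KRT76 (0.814) and WIF1 (0.813), with 0.430, -0.102 and 0.427 over healthy dogs. IFNG was well above background in only 14 of 20 AD dogs, and the 2 AD dogs of slide 6 were at 0.16 and 2.48. Its r without such arrays was not computed. These r values are the highest of many and are given as a description, with array and slide shared by both genes of a pair.

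Of 40 further genes of cytotoxic lymphocytes, 23 had a probe of that name and 20 were tested. At an unadjusted p under 0.05 from limma, 0 were lower and 0 higher in AD dogs, against 4.46% and 1.65% of all probes. The median fold change was -0.02, with 12 of 20 below 0. The smallest p belonged to IL18RAP, a chain of the interleukin 18 receptor, with a fold change of 0.50 (standard error 0.251, unadjusted p = 0.0534). It was followed by SRGN (0.21), the proteoglycan of the granule matrix, PDCD1 (0.27), NCR3 (-0.21), an activating receptor of natural killer cells, the chemokine receptor CX3CR1 (0.31) and the transcription factor PRDM1 (-0.13), with unadjusted p-values from 0.160 to 0.361.

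Markers of other blood cells were compared in the same way, and 0 genes of any list had an unadjusted p under 0.05. The median fold change was 0.05 for T cells (4 of 9 genes below 0), -0.32 for B cells (4 of 7), 0.23 for neutrophils (0 of 6), 0.01 for monocytes (3 of 6), 0.24 for red cells (1 of 7) and -0.30 for platelets (4 of 4). The mean log2 ratio of the T cell markers ran from -0.62 to 0.67 in AD dogs and from -0.33 to 0.28 in healthy dogs. That of the neutrophil markers ran from -0.22 to 1.39 and from -0.34 to 0.50. The part of these markers in the values of the CD8 and cytotoxic genes was not tested.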

How the data were processed

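Blood of 20 AD dogs and 8 healthy controls was measured on Agilent canine arrays. The authors scanned the arrays and extracted spot intensities with Agilent Feature Extraction (version 10.7.3.1 per the labels), with subtraction of the background and Lowess to balance both dyes. These intensities were deposited on a linear scale, with marks for outlier spots and for signals well above background. The deposited log10 ratio of dog to common reference is that of the scanner files, and the authors' processed table repeats it for all 28 arrays with a largest difference of 0.0.

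From the processed signals, log2 ratios were computed for 43803 spots of 43603 probes that are not controls. Spots marked as non-uniform or population outliers were left out, spots of 1 probe were averaged, and the median of each array was set to 0. Probes not well above background on any array, with all 4 medians (2 channels, 2 groups) at most 100, or with values on under 50% of the arrays of a group were removed, which left 30202. limma 3.58.1 (lmFit and eBayes, R 4.3.3) compared AD with healthy dogs over all of them, with Benjamini-Hochberg adjustment, a threshold of 0.085 and no covariate. The fit was tested on simulated data. Each dog is a separate animal, and the number of arrays limits the precision.

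The genes and gene lists were chosen with earlier results of these data known. All 9 genes with a probe, CD3E and CD4 are named (CD247, a further T cell reference, had no probe of that name), with the 6 further cytotoxic genes of smallest unadjusted p and, for each gene, the 3 most similar named genes in AD dogs. Permutation tests used scipy 1.17.1 and numpy 2.4.6, tables pandas 2.3.3 and figures matplotlib 3.10.9. Dog numbers come from the labels and do not pair dogs: deviations of the 8 pairs of dogs with the same number had an r of -0.359 to 0.425, over 0.1 in 4 of the 8. Alternatives changed the filter, outlier marks, background correction (normexp with offset 50), centering, channel, table, blocks, array weights, variance model, probe choice and arrays included.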

Additional observations from a re-analysis of the deposited data

How the results depend on the processing

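Each result was recomputed under the alternatives, including without each slide in turn, without scan day 5 and without healthy dog 5. No probe was called over the arrays left out in turn, and 3 probes were called by limma with no signal filter, 1 when well above background on at least 8 arrays was required, 1251 with the dog's channel alone and 1009 with array weights. The 1847 probes with an unadjusted p under 0.05 became 3301, 5879 and 6052 with no filter, the dog's channel and array weights, 1201 with slide as a random block, 5177 with the replicate block, 785 (without slide 3) to 2778 (without slide 5) without single slides, and 2807 without scan day 5. Array weights called 1 of the 9 genes, GZMK (-0.79, adjusted p = 0.0677 from limma). The 2 genes with an unadjusted p under 0.05 became 1 with normexp and loess, 1 with the dog's channel, 1 with the replicate block, 4 with array weights, and 0 (without slide 3) to 2 without single slides. The replicate block called 0 probes, and the dog numbers are not known to pair dogs. GZMK kept an unadjusted p under 0.05 in 22 of 26 alternatives and EOMES in 23, both below 0 in all of them. Most alternatives reuse all arrays, so these counts are not independent. Without slide 3 neither gene kept it (unadjusted p = 0.765 for GZMK and 0.157 for EOMES from limma).

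Fold changes of other genes turned direction. CD8A was 0.0522 with normexp, 0.0150 with the dog's channel, 0.0017 with array position as a term and -0.25 to 0.21 without single slides. CD8B was -0.0337 with array weights and -0.21 to 0.50 without single slides, GZMA -0.61 to 0.0151 and KLRD1 -0.64 to 0.16. PRF1 was 0.0049 with normexp, 0.23 with the dog's channel, 0.0030 with slide as a random block, 0.0769 without healthy dog 5 and -0.10 to 0.0884 without single slides. IFNG was -0.14 with the dog's channel and -0.0293 to 0.19 without single slides. CD8A minus CD3E was -0.66 with the dog's channel and -0.64 to 0.0473 without single slides, and CD8B minus CD3E -0.37 to 0.11.

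The 1 pair of correlated genes in AD dogs and the 2 in healthy dogs became 6 and 5 with the dog's channel, 3 and 9 with slide means removed, 0 and 0 without scan day 5 or without healthy dog 5, 0 to 6 and 0 to 7 without single slides, 1 in healthy dogs with normexp, and 3 in AD dogs with the mean of all probes. The adjustment covered both groups, so a count could change in a group that lost no array. In healthy dogs the 0 without scan day 5 and the 0 to 7 came from leaving out AD arrays, with the median r unchanged at 0.296. In AD dogs the median r was likewise unchanged at 0.112 without healthy dog 5, slide 2 or slide 3. With slide means removed, the permutations did not allow for the means taken out. The count of probes called in the reference channel, 11807 over all arrays, was 2906 with slide as a random block, 5502 without scan day 5, 7016 without slide 3 and 3049 to 13414 without single slides. The cause of the other changes was not tested. Healthy dogs came from 2 slides, so leaving out either leaves 4 dogs, and dim signals limit EOMES and IFNG.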
